A study of Mus musculus with 11 samples.

Results

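The core loop of the circadian clock was followed here through 8 genes, chosen by name from the 36788 gene identifiers of the table: Arntl (which encodes BMAL1), Npas2, Clock, Per1, Per2, Per3, Cry1 and Cry2. Liver RNA was sequenced from 5 mice treated with follicle-stimulating hormone (FSH), numbered 1, 2, 3, 4 and 6, and from 6 mice treated with saline, numbered 1 to 6. All 11 were wild-type C57BL/6 females over 12 weeks of age that had been ovariectomized (OVX) and placed on a high-fat diet. The saline mice thus also lacked ovaries and ate this diet. For strain, the paper's methods give a mixed background that includes C57BL/6 for all its mice. Each mouse gave 1 whole-liver library, and the hour at which livers were taken is not given in the sources used here. Each liver was sampled once, so these values hold levels at 1 moment and no rhythm.

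BMAL1 pairs with CLOCK or with its close relative NPAS2, and the pair binds E-box sequences to switch on the Per and Cry genes. PER and CRY proteins then enter the nucleus and inhibit that pair, which closes a daily feedback loop. In the liver this loop times much of lipid, glucose and bile acid metabolism, and a second loop of nuclear receptors (REV-ERB and ROR) acts on Arntl through sequences called ROREs, while the PAR-bZIP factors act through D-boxes.

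The activator arm was low in FSH livers: Arntl averaged 3.33 ± 1.31 counts per 1000000 counted reads (CPM; SD, n = 5) against 18.1 ± 3.43 (SD, n = 6) in saline livers, Clock was lower by 0.99 on the log2 scale, and Npas2 was almost without reads. The repressor arm was split. Per3 was 6.88 times as high in FSH livers by the ratio of means and Per2 1.66 times, Cry1 was at 0.40 times its saline level, and Cry2 was near equal in both groups. These differences are descriptions with no test, because the 8 genes were selected with the FSH and saline levels known. Bulk RNA cannot tell fewer cells of a type from less RNA per cell.

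RefSeq promoter windows (GRCm38.p6, from 250 bases before to 50 bases after a transcript start) were matched for 7 of the 8 genes, in 11 windows, and Per2 was not among them. They were searched on both strands for the E-box CACGTG, the E′-box CACGTT, the D-box TTATGTAA or TTACGTAA, the RORE TAGGTCA or TGGGTCA, and the CRE TGACGTCA. None of these letter sets overlapped another in the matches found. The upstream stretches of 4 repressor genes are printed, since they carry the matches and belong to genes that were higher, lower and near equal in FSH livers. Capitals mark the matched motifs, AACGTG being the E′-box read on the other strand.
Per3 (chr4:151044666-151044915, minus strand): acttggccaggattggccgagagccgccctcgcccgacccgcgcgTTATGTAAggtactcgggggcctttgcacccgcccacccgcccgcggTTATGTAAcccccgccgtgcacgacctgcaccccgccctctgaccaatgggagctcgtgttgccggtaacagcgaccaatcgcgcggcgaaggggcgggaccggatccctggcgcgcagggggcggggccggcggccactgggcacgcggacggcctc
Cry1 (chr10:85185055-85185304, minus strand): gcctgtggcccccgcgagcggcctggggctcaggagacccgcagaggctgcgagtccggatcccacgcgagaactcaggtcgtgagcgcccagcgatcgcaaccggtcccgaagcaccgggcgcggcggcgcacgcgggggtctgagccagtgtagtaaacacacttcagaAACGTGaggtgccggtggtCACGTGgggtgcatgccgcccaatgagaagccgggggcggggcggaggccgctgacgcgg
Per1 (chr11:69098699-69098948, plus strand): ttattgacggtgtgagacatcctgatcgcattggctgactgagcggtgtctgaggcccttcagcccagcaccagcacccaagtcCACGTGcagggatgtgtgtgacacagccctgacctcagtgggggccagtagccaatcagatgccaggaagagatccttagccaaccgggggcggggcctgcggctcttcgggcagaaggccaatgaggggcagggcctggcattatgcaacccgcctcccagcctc
Cry2 (chr2:92434070-92434319, minus strand): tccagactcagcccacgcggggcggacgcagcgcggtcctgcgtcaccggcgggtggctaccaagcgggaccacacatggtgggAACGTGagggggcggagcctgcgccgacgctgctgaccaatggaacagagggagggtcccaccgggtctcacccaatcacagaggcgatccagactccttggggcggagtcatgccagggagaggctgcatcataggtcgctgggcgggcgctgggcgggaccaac

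The Per3 stretch held 2 D-boxes, whose first bases lay at -205 and -158 counted from the transcript start, and a D-box was found in 1.06% of all 32851 windows of this length. The Cry1 stretch held an E-box from position -60 and an E′-box from position -79, against 7.15% and 4.68% of all windows. Per1 had an E-box and Cry2 an E′-box, both from position -166. For Arntl the match lay past the start of transcription. This 30-base site (chr7:113207530-113207559, plus strand) is shown for its RORE in capitals, 30 bases after the second RefSeq start of the gene, and a RORE was found in 6.45% of all windows.
Arntl site: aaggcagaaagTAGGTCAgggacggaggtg

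No match was found in the Npas2 and Clock windows, and the CRE, found in 1.79% of all windows, had 0 matches among the members. A match describes letters in a window and was not tested for binding.

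Arntl encodes BMAL1, the partner that every activating pair of the loop contains (ENSMUSG00000055116, chr7:113207465-113314126, plus strand; positions here and below are those of GENCODE M21 on GRCm38). Its level in FSH livers 1, 2, 3, 4 and 6 was 2.06, 2.14, 4.19, 3.16 and 5.08 CPM. Saline livers ranged from 13.2 to 22.8 CPM with a median of 18.2. The lowest saline liver was thus above the highest FSH liver, and the ratio of saline to FSH means was 5.45. On the log2(CPM + 0.5) scale the difference was -2.33 (SE 0.20, limma). The FSH values rested on 29 to 74 reads a liver and the saline values on 174 to 366.

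Npas2 encodes the CLOCK relative that can replace CLOCK beside BMAL1 (ENSMUSG00000026077, chr1:39193731-39363236, plus strand). FSH liver 1 had 2 Npas2 reads and the other 4 FSH livers had 0, while each saline liver had between 60 and 108 reads. The saline livers lay between 4.64 and 7.14 CPM with a median of 5.86. Npas2 was thus at or under the limit of 3 reads in every FSH liver and well above it in every saline liver. Pooled over livers, 2 of 78017553 reads were on Npas2 in the FSH group and 457 of 77251565 in the saline group, a ratio of 230.8 with a 95% exact conditional interval from 63.52 to 1911 that covers counting error only. The fitted log2 difference of -3.61 depends on the pseudocount and is no measure of its size.

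Clock encodes the usual partner of BMAL1 (ENSMUSG00000029238, chr5:76209868-76304792, minus strand). It stood at 6.88, 12.0, 10.3, 9.30 and 8.24 CPM in FSH livers 1, 2, 3, 4 and 6. The saline livers ran from 15.1 to 27.2 CPM with a median of 17.6. The groups did not overlap, but they lay closer together than for Arntl, with 9.35 ± 1.96 CPM (SD, n = 5) against 19.1 ± 4.69 (SD, n = 6) and a log2 difference of -0.99 (SE 0.16). This value is just short of the fold threshold of 1 used for calls. It passed that threshold without FSH liver 2 (-1.08), FSH liver 3 (-1.03), saline liver 1 (-1.01), saline liver 3 (-1.04) or saline liver 5 (-1.05), each left out alone.

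The PER proteins are the inhibitory partners of CRY. Of their 3 transcripts, Per3 and Per2 had higher means in FSH livers, and the Per1 groups overlapped over most of their range. Per3 (ENSMUSG00000028957, chr4:151003652-151044665, minus strand) was at 37.3, 38.6, 25.7, 31.1 and 15.9 CPM in FSH livers 1, 2, 3, 4 and 6. Saline livers held 2.59 to 5.53 CPM with a median of 4.28. FSH liver 6 had the lowest Per3 of its group and was still above the highest saline liver. The log2 difference was 2.61 (SE 0.21). Per3 overlaps Camta1 on the same strand in the annotation, so reads could be shared, and Camta1 itself was at 4.64 to 7.11 CPM in FSH and 4.29 to 7.41 CPM in saline livers.

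Per2, whose protein is a main brake on BMAL1 (ENSMUSG00000055866, chr1:91415982-91459324, minus strand), was at 21.7, 26.5, 22.1, 24.9 and 18.1 CPM in FSH livers 1, 2, 3, 4 and 6. Saline livers ranged from 8.33 to 20.7 CPM with a median of 13.2. The groups overlapped, since saline liver 3 at 20.7 CPM was above FSH liver 6. The log2 difference was 0.75 (SE 0.18), in the same direction as Per3 and smaller.

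Per1 responds quickly to hormones and feeding as well as to the clock (ENSMUSG00000020893, chr11:69095217-69109960, plus strand). Its level was 8.59, 19.2, 18.2, 26.9 and 42.9 CPM in FSH livers 1, 2, 3, 4 and 6. Saline livers ranged from 17.4 to 45.0 CPM with a median of 35.2. The groups overlapped over most of their range, and the spread within the FSH group was wider than the distance between the group means of 23.2 ± 12.8 (SD, n = 5) and 33.3 ± 11.7 (SD, n = 6) CPM. The log2 difference, -0.61, had an SE of 0.33. Single livers moved it, to -0.31 without FSH liver 1 and to -0.88 without FSH liver 6.

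The CRY proteins carry the main inhibitory action on BMAL1. Of their transcripts, Cry1 was lower in FSH livers and Cry2 was near equal in both groups. Cry1 (ENSMUSG00000020038, chr10:85131700-85185064, minus strand) was at 14.9, 16.0, 22.5, 19.4 and 24.1 CPM in FSH livers 1, 2, 3, 4 and 6. Saline livers ranged from 39.5 to 54.6 CPM with a median of 49.5. The groups did not overlap, and the log2 difference was -1.31 (SE 0.13). Cry2 (ENSMUSG00000068742, chr2:92403646-92434043, minus strand) was at 26.0, 30.8, 22.3, 25.4 and 22.4 CPM in the same FSH livers. Saline livers held 17.7 to 31.0 CPM with a median of 24.8, a range that contained every FSH liver, and the log2 difference of 0.06 was smaller than its SE of 0.13. Its sign turned without FSH liver 2 (-0.0080) or saline liver 5 (-0.025).

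**Figure D1:**
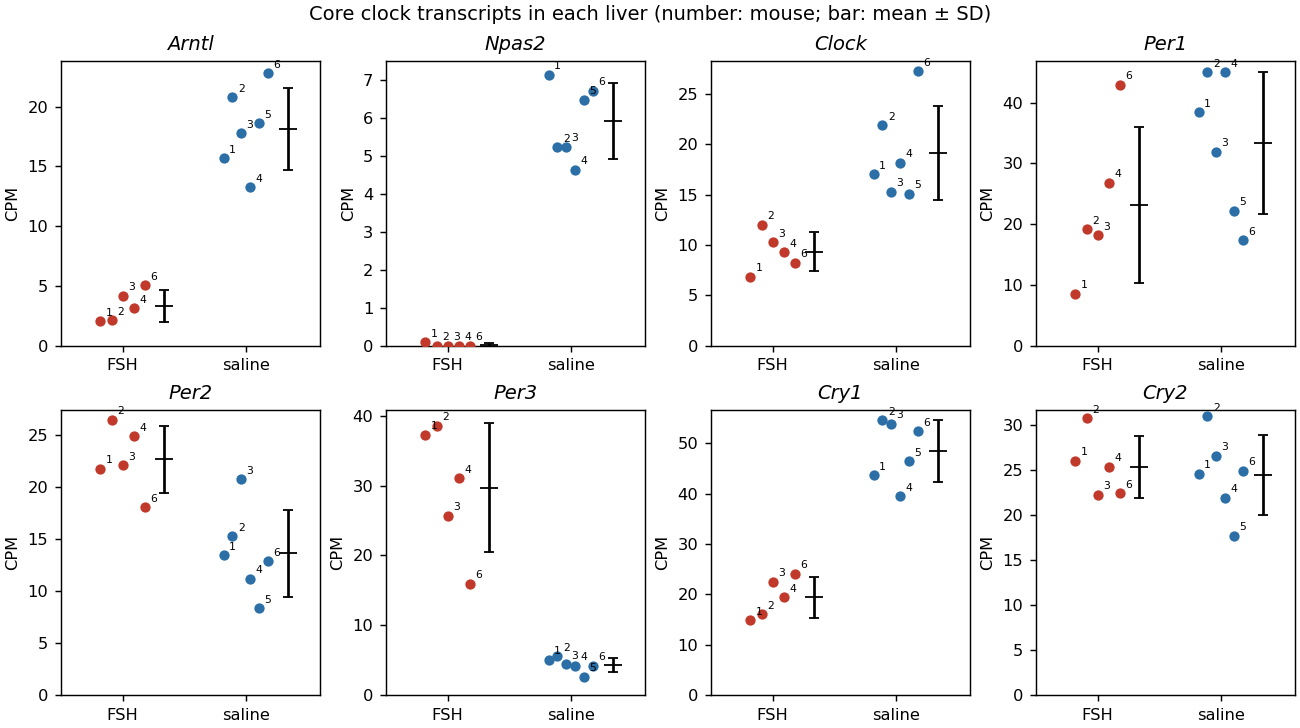
Level of each of the 8 core clock transcripts in every liver, in CPM on a linear axis from 0, with FSH livers in red, saline livers in blue, the mouse number beside each point and the mean ± SD as a black bar. Arntl, Npas2, Clock, Per3 and Cry1 have groups that do not overlap, and Per1, Per2 and Cry2 have groups that do.

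Read across all 12733 genes fitted, 233 (1.83%) passed both thresholds (adjusted p under 0.05 together with a log2 difference beyond 1 in either direction). Among these 0.887% of all genes were higher in FSH livers and 0.942% were lower. All 8 members passed the filter on low values. Of them 1 was called higher (Per3) and 3 lower (Arntl, Npas2 and Cry1). At the adjusted p alone 10.6% of all genes and 6 members passed (2 higher, 4 lower). The groups did not overlap for 6.67% of all genes and for 5 members. The members were selected on this comparison, so these counts describe them and support nothing. Just past the fold threshold lay Cry1 at -1.31 and just short of it Clock at -0.99. The median log2 difference was -0.80 over the 8 members and 0.02 over all genes fitted.

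**Figure D2:**
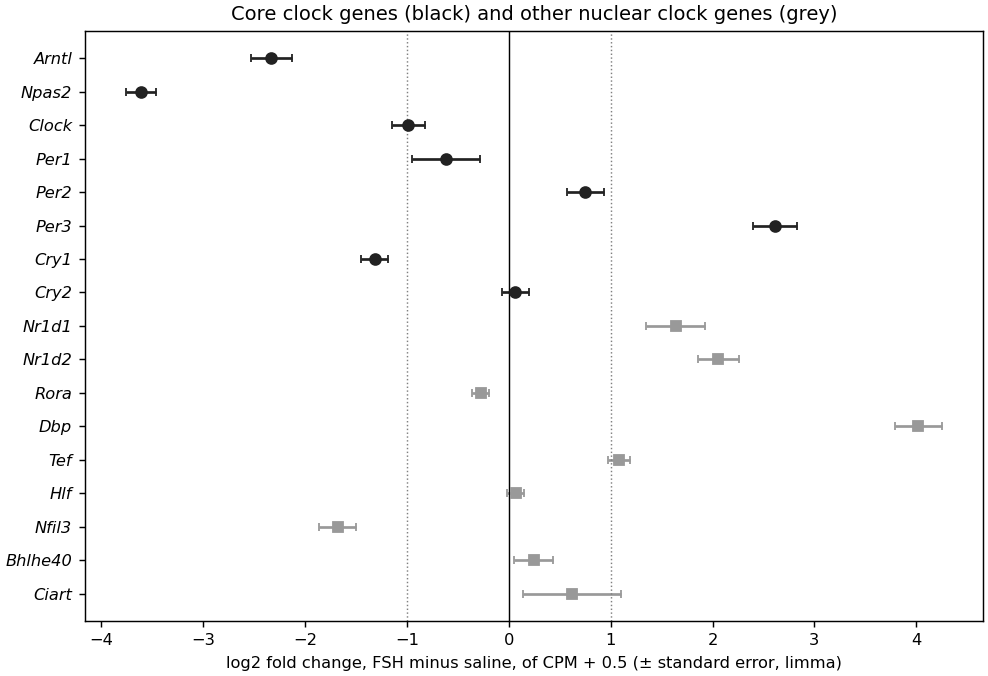
Log2 difference of CPM + 0.5, FSH minus saline, on the x axis for the 8 core genes (black) and 9 other nuclear clock genes (grey), with the standard error from limma as bars and dotted lines at the fold threshold. Arntl, Npas2, Cry1 and Nfil3 lie left of the lower line and Per3, Nr1d1, Nr1d2, Dbp and Tef right of the upper one.

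To compare levels between genes, CPM was divided by the length of each gene's merged exons. In FSH livers the order of mean CPM per kb was Cry1 (5.80), Per1 (4.11), Cry2 (4.01), Per2 (3.87) and Per3 (3.09), and each neighbour in this row overlapped the next in range. A gap followed, with Clock at 0.681, Arntl at 0.442 and Npas2 at 0.0042. The ranges of Per3 and Clock did not overlap, so on this scale all 5 repressor transcripts stood above all 3 activator transcripts. This depends on the division by length. In plain CPM, Per1 in FSH liver 1, at 8.59, lay within the FSH range of Clock, 6.88 to 12.0. In saline livers Cry1 led at 14.5 CPM per kb, apart from Per1 at 5.92, and Cry2 (3.87), Arntl (2.41), Per2 (2.33), Clock (1.39) and Npas2 (1.23) followed with overlapping neighbours. Per3 was last at 0.449, apart from Npas2. Per3 thus held the fifth place in FSH livers and the last in saline livers.

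Summed per length, the PER transcripts came to 11.1 ± 1.55 CPM per kb (SD, n = 5) in FSH livers and 8.70 ± 2.41 (SD, n = 6) in saline livers, with overlapping ranges. The makeup of that sum differed more than its size. Per3 was 28.7% ± 10.7 (SD, n = 5) of it in FSH livers, from 13.4% to 42.6%, and 5.32% ± 1.19 (SD, n = 6) in saline livers, from 4.22% to 7.59%. Per1 made up 35.8% ± 16.6 (SD, n = 5) of the PER sum in FSH livers and 67.0% ± 8.83 (SD, n = 6) in saline livers, with overlapping ranges of 16.7% to 61.7% and 53.9% to 77.3%. The CRY sum was 9.82 ± 0.82 CPM per kb (SD, n = 5) against 18.4 ± 2.37 (SD, n = 6) and the groups did not overlap, with Cry1 giving 58.7% ± 7.85 (SD, n = 5) of it in FSH and 79.0% ± 2.44 (SD, n = 6) in saline livers. The 2 partners of BMAL1, Clock and Npas2, summed to 0.685 ± 0.136 CPM per kb (SD, n = 5) and 2.63 ± 0.426 (SD, n = 6). Npas2 was 47.3% ± 6.70 (SD, n = 6) of the partner sum in saline livers, and in FSH livers 0% in 4 livers and 4.01% in FSH liver 1.

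**Figure D3:**
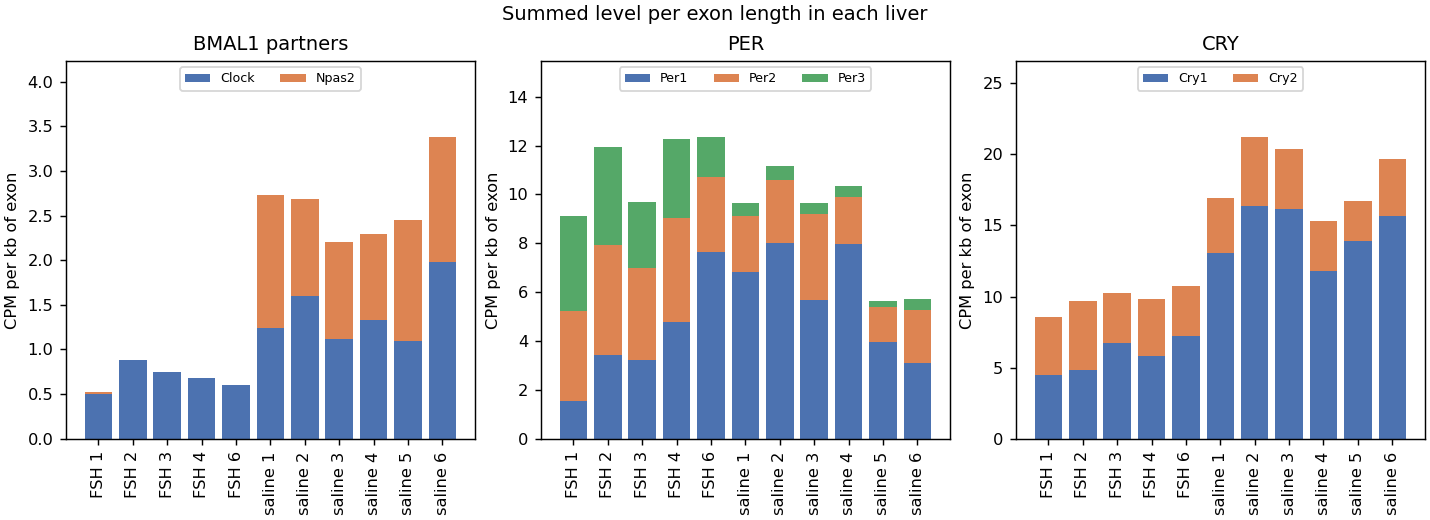
Stacked bars give CPM per kb of merged exon in each of the 11 livers for the BMAL1 partners (left), the PER genes (middle) and the CRY genes (right), each axis from 0. Npas2 is missing from 4 of the 5 FSH bars, Per3 is a thin band in every saline bar, and the CRY bars of all FSH livers are below those of all saline livers.

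A ratio of transcripts taken within 1 liver is free of library scaling except through the 0.5 CPM added to each value, and it gives the position of the repressors relative to BMAL1. The log2 ratio of Per3 to Arntl was 3.89, 3.89, 2.48, 3.11 and 1.56 in FSH livers 1, 2, 3, 4 and 6. In saline livers it ran from -2.63 to -1.54 with a median of -1.86. Per3 was above Arntl in 5 of 5 FSH livers and below it in 6 of 6 saline livers, in CPM with 0.5 added and without regard to length. The ratio of Cry2 to Arntl ran from 2.04 to 3.57 in FSH and from -0.07 to 0.71 in saline livers, and that of Per2 to Arntl from 1.73 to 3.35 and from -1.11 to 0.22.

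Cry1 was lower in FSH livers, yet its log2 ratio to Arntl was higher there, from 2.14 to 2.64 against 1.19 to 1.58 in saline livers. This ratio also varied least within a group, with an SD of 0.21 in FSH (n = 5) and 0.15 in saline livers (n = 6), against 0.99 and 0.43 for Per3 to Arntl. Per1 to Arntl, from 1.83 to 2.96 in FSH and from -0.38 to 1.73 in saline livers, did not overlap either, although Per1 itself did. The log2 ratio of Clock to Arntl ran from 0.65 to 2.25 in FSH and from -0.29 to 0.44 in saline livers. Npas2 to Arntl went the other way, from -3.48 to -2.09 in FSH and from -1.89 to -1.08 in saline livers, where the FSH values are set largely by the added 0.5 CPM. Arntl is the shared denominator of these ratios and was lower by 2.33 in FSH livers, which lifts each of them there. Between the cryptochromes, the log2 ratio of Cry1 to Cry2 lay between -0.92 and 0.10 in FSH and between 0.81 and 1.37 in saline livers.

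**Figure D4:**
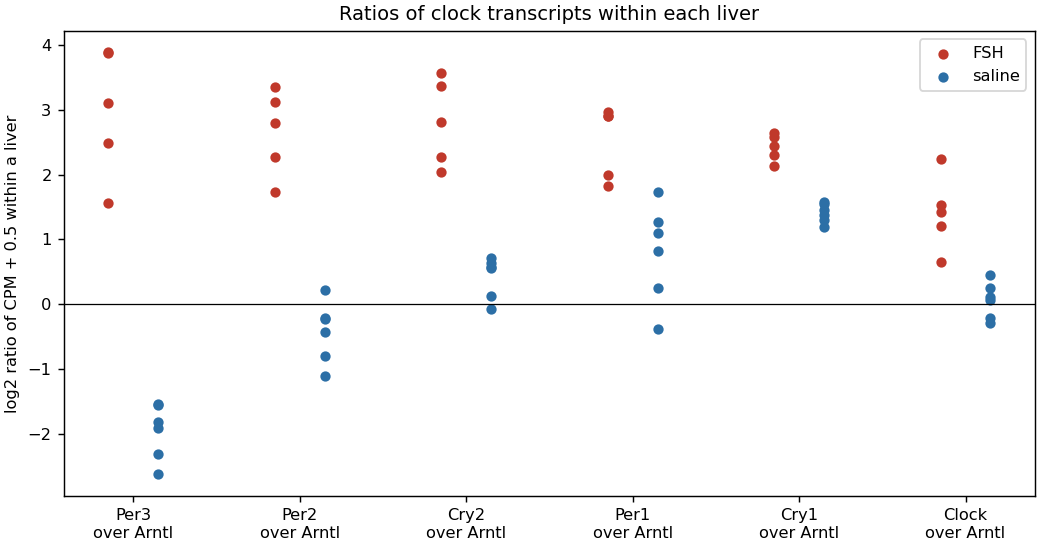
Log2 ratio of CPM + 0.5 within each liver for 6 genes over Arntl, with FSH livers in red and saline livers in blue. In the 6 ratios plotted, which leave out Npas2 and share Arntl as denominator, every FSH liver lies above every saline liver, with the widest gap for Per3 and the tightest groups for Cry1.

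The members also varied among livers of 1 group. Per1 varied most, with an SD of log2(CPM + 0.5) of 0.83 in FSH livers (n = 5), above 99.0% of all genes fitted, and 0.56 in saline livers (n = 6), above 95.7%. In FSH livers Per3 and Arntl also stood high in this ranking, above 95.5% and 95.1% of genes, and in saline livers at 79.1% and 66.5%. Cry2 lay nearer the middle, at 44.8% in FSH and 64.9% in saline livers. Within the FSH group the order from lowest to highest was 1, 2, 4, 3, 6 for Arntl and the same for Cry1, while Per3 ran 6, 3, 4, 1, 2. In the saline group the orders of Arntl (4, 1, 3, 5, 2, 6) and Cry1 (4, 1, 5, 6, 3, 2) were alike only at the low end. FSH liver 6 had the highest Arntl, Cry1 and Per1 and the lowest Per2 and Per3 of its group.

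Whether members moved together from liver to liver was asked within groups, where the difference between FSH and saline has no part. Among the 6 saline livers alone, 28 pairs of members were tested by exact permutation (two-sided, smallest possible p 0.0028). At an adjusted p under 0.05, 0 pairs passed by Pearson and 0 by Spearman, and at an unadjusted p under 0.05, 2 passed by Pearson and 1 by Spearman. The highest were Per3 with Cry2 (r = 0.91, exact permutation p = 0.014, adjusted p = 0.39), Arntl with Cry1 (r = 0.86, exact permutation p = 0.031, adjusted p = 0.43) and Per2 with Cry2 (r = 0.82, exact permutation p = 0.058, adjusted p = 0.54). The Spearman coefficient was 0.71 for the first (exact permutation p = 0.14, adjusted p = 0.64), 0.71 for the second with the same p, and 0.89 for the third (exact permutation p = 0.033, adjusted p = 0.64). Without the 2 saline livers farthest from the median of the first gene, r was 0.21 for Per3 with Cry2, which thus rested on saline livers 2 and 5, 0.73 for Arntl with Cry1 and 0.96 for Per2 with Cry2. The lowest were Arntl with Per1 (r = -0.62, exact permutation p = 0.18), Npas2 with Per1 (r = -0.60, exact permutation p = 0.23) and Per1 with Cry1 (r = -0.32, exact permutation p = 0.52). Their adjusted p-values were 0.67, 0.67 and 0.84, and the Spearman coefficients were -0.43, -0.60 and 0.03 (exact permutation p = 0.42, 0.24 and 1, adjusted p = 0.98, 0.85 and 1). Without the 2 farthest livers, r was 0.11, -0.93 and -0.39. Single livers moved these values, as Arntl with Per1 stood at -0.96 without saline liver 2 and -0.31 without saline liver 6, and Npas2 with Per1 at -0.94 without saline liver 1.

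With the mean of each group subtracted, all 11 livers could be used for the 7 members other than Npas2, which gave 21 pairs and 86400 exact permutations within groups. Arntl and Cry1 rose and fell together, at r = 0.95 (exact permutation p = 0.00046, adjusted p = 0.0097). The Spearman coefficient was 0.91 (exact permutation p = 0.0037, adjusted p = 0.077), so the pair passed the adjustment by Pearson and not by rank. Without FSH livers 6 and 1, whose Arntl lay farthest from the mean of their group, r was 0.91. It stayed between 0.93 and 0.98 without any single liver. The group means had been subtracted, so the difference between FSH and saline livers does not enter this r.

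Per3 and Cry2 gave r = 0.79 (exact permutation p = 0.0024, adjusted p = 0.025) and Spearman coefficient = 0.75 (exact permutation p = 0.0086, adjusted p = 0.090). Without FSH liver 6 and saline liver 5, r was 0.74. The call was lost without FSH liver 4 (r = 0.80, adjusted p = 0.062) and with libraries scaled by the median of ratios (r = 0.76, adjusted p = 0.058), where r moved little, and without saline liver 5 (r = 0.70, adjusted p = 0.28). Per2 with Cry2 gave r = 0.80 (exact permutation p = 0.013, adjusted p = 0.088), Spearman coefficient = 0.75 (exact permutation p = 0.015, adjusted p = 0.10) and r = 0.82 without saline livers 3 and 5. Leaving out single livers took its adjusted p from 0.018 (without saline liver 3) to 0.31 (without saline liver 5, r = 0.64), and it was under 0.05 only without saline liver 2 (adjusted p = 0.042) or saline liver 3.

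Arntl and Per3, a pair picked after its values were seen, gave r = -0.65 (exact permutation p = 0.062, adjusted p = 0.26) and Spearman coefficient = -0.75 (exact permutation p = 0.038, adjusted p = 0.18). This value rested on the FSH livers, since r was -0.01 in saline livers alone and -0.34 without FSH livers 6 and 1. Points of 1 liver share a library and its depth, and the part of these in the correlations was tested only through the other scaling.

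**Figure D5:**
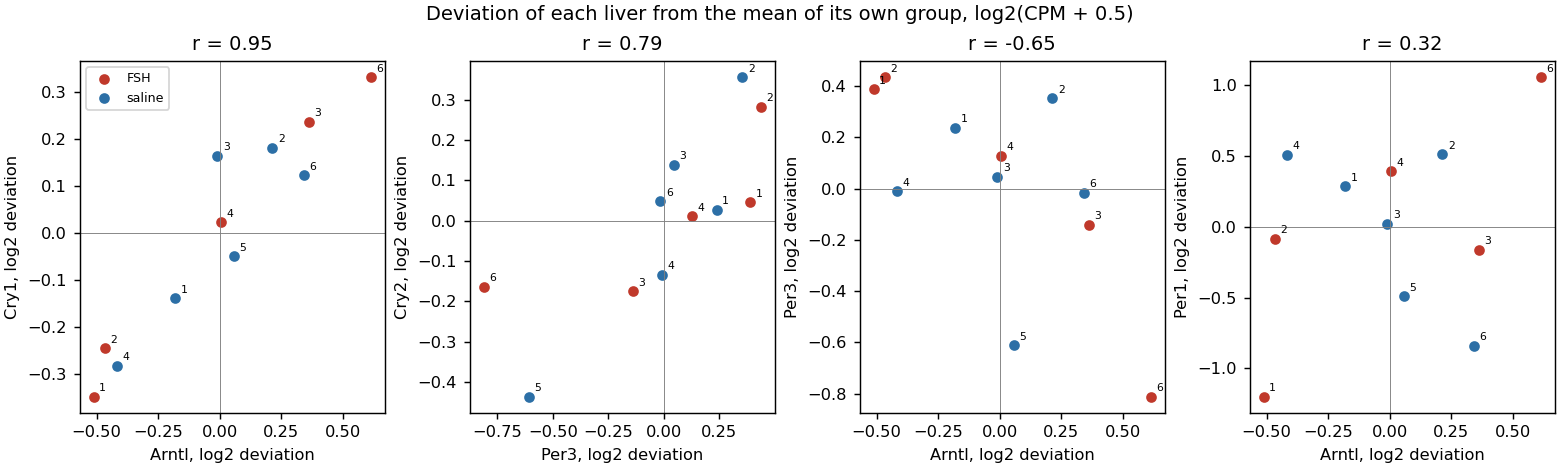
Each point is 1 liver, placed by its deviation from the mean of its own group on the log2(CPM + 0.5) scale for 2 genes, with FSH livers in red, saline livers in blue and the mouse number beside each point. Arntl and Cry1 lie close to a line in both groups (r = 0.95), Per3 and Cry2 rise together more loosely (r = 0.79), Arntl and Per3 fall against each other mainly through FSH livers (r = -0.65), and Arntl and Per1 form no common line (r = 0.32).

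The genes most like Arntl in this within-group movement, among 8889 genes averaging 5 CPM or more, were Cry1 (r = 0.95), Actn4 (r = 0.93), which encodes an actin-crosslinking protein, and Plekhb1 (r = 0.87). The most opposed were Cirbp (r = -0.91), which encodes a cold-inducible RNA-binding protein, Cisd1 (r = -0.89), which encodes a mitochondrial iron-sulfur protein, and Sdr39u1 (r = -0.89). Those most like Per3 were Cdc5l (r = 0.95), a splicing factor gene, Rfc1 (r = 0.94), a clamp loader subunit gene, and Mtg1 (r = 0.94), and the most opposed were Hist1h2bc (r = -0.90), Camk2n1 (r = -0.87) and Btd (r = -0.87), among genes with a name. A predicted gene (1) that ranked above Camk2n1 in opposition to Per3 was left out. No p is given for these, since they are the extremes of a ranking over 11 livers. Dbp, an output gene of the clock, stood at r = -0.81 to Arntl and 0.79 to Per3. Other clock output genes lay nearer 0, with Nr1d1 at -0.50 and -0.0098, Nr1d2 at -0.41 and 0.34, and Tef at -0.28 and 0.65.

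The other nuclear clock genes described were 12, of which 9 passed the filter on low values and Rorb, Bhlhe41 and Arntl2 did not. By limma's test 4 rose in FSH livers, 1 fell and 4 did not pass both thresholds, and 6 had groups that did not overlap, where over all genes 1.83% passed both thresholds and 6.67% did not overlap. Dbp, a PAR-bZIP activator that binds D-boxes, was at 121, 115, 56.5, 79.6 and 42.6 CPM in FSH livers 1, 2, 3, 4 and 6 against 3.40 to 4.95 CPM in saline livers, a log2 rise of 4.02 (SE 0.23). Nr1d1 and Nr1d2 encode the REV-ERB repressors that bind ROREs, and they rose by 1.64 (SE 0.29) and 2.06 (SE 0.20). Tef, another PAR-bZIP activator, rose by 1.08 (SE 0.11), and Nfil3, a repressor at D-boxes, fell by 1.68 (SE 0.18). These genes were listed with earlier results of these data known, so their calls are not independent evidence.

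Of the remaining nuclear genes, Rora, a RORE activator, had a log2 difference of -0.28 (SE 0.08, limma adjusted p = 0.046). Hlf stood at 0.07, Bhlhe40 at 0.24 and Ciart at 0.62. The 9 genes had a median log2 difference of 0.62. Within the FSH group Dbp ran 6, 3, 4, 2, 1 from low to high, and Nr1d2 and Tef ran 6, 4, 3, 1, 2. Nfil3 ran 1, 2, 4, 3, 6 like Arntl and Cry1, and Nr1d1 ran 6, 3, 4, 1, 2 like Per3. The saline livers did not share these orders, with Nfil3 at 6, 1, 5, 2, 3, 4 against Arntl at 4, 1, 3, 5, 2, 6, and Nr1d1 at 2, 1, 3, 6, 5, 4 against Per3 at 5, 6, 4, 3, 1, 2. With group means subtracted, r over the 11 livers was 0.58 for Nfil3 with Arntl and -0.0098 for Nr1d1 with Per3.

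A list of 20 kinases, ubiquitin ligases and cofactors that modify clock proteins showed 0 calls past both thresholds in limma's test. At the adjusted p alone 2 of 20 passed, a share near the 10.6% of all genes and so no result about the list. They were Fbxl21, a ligase subunit for CRY (log2 difference 0.51, adjusted p = 0.020), and Prkaa2, a catalytic subunit of AMP-activated kinase (0.42, adjusted p = 0.026). Timeless (0.49, adjusted p = 0.059) and Csnk1d, a kinase of PER proteins (-0.25, adjusted p = 0.12), did not. The median over the list was 0.07.

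Library totals were 10801891 to 19909327 reads, the first principal component (31.0% of variance) separated the groups, and no pair of livers within a group matched to sampling noise (lowest mean chi-square per gene 11.4). Hepatocyte markers summed to 92954 to 112740 CPM in FSH and 85710 to 114340 in saline livers. Of the 9 marker lists of liver and neighbouring cell types, 0 genes passed both thresholds. The filter on low values left 0 of 5 adipocyte, 1 of 5 acinar and 3 of 5 leukocyte markers fitted. Markers that were not fitted could not be called. At the adjusted p alone 1 of 6 hepatocyte, 1 of 5 bile duct and 1 of 5 sinusoidal endothelial markers passed. Over all genes 10.6% did. The sums were 93.3 to 256.9 and 152.7 to 303.2 CPM for Kupffer cells, 47.6 to 69.4 and 38.3 to 55.7 for bile duct cells, 109 to 162 and 126 to 151 for sinusoidal endothelium, and 189 to 260 and 217 to 293 for stellate cells, in FSH and saline livers. They were 7.15 to 13.1 and 7.47 to 14.4 CPM for leukocytes, 464 to 790 and 425 to 1010 for erythroid cells, 10.5 to 15.2 and 7.86 to 13.7 for pancreatic acinar cells, and 0 to 0.227 and 0 to 0.525 for adipocytes. Acinar markers Prss2 and Pnlip and adipocyte markers Retn and Lep were at 0 in every liver. Marker sums overlapped between groups, and their part in the clock values was not tested.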

How the data were processed

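The authors deposited 1 table of CPM values (reads counted on each gene per 1000000 counted reads) for the livers of 5 FSH and 6 saline mice, with no scaling between libraries. Per the submitters' processing notes, the reads were handled with FastQC 0.11.2, Trim Galore 0.3.3, cutadapt, STAR and RSEM on mm10. Per the labels, total RNA came from whole liver digested with papain. Use of strand is not given in the sources used here, so overlapping genes could share reads (Arntl, Npas2, Clock, Per3 and Cry2 overlap another annotated gene). Each library's values were whole multiples of its smallest step, which gave back reads for 100% of values (tolerance 0.05). Identifiers were matched to GENCODE M21 symbols (35555 named).

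The 12733 genes averaging 0.5 CPM or more were fitted by limma 3.58.1 (R 4.3.3; eBayes with an intensity trend, Benjamini-Hochberg adjustment) after log2 transformation of CPM + 0.5, and called where the absolute log2 fold change was over 1 and the adjusted p under 0.05. Fold changes on this scale understate low genes. The code was tested on simulated data. Ratios, sums per merged exon length and correlations were computed in Python 3.11.15 with scipy 1.17.1. The alternatives were other pseudocounts, filters and scalings, no trend, edgeR 4.0.16 and DESeq2 1.42.0 on recovered reads, a replicate block and leaving out each liver. The members, the gene lists and the markers were chosen with earlier results of these data known. The text names the members, 12 other nuclear clock genes (some results are not reported here), 4 clock protein modifiers with the smallest p, and the 3 named genes most and least like Arntl and Per3 within groups (predicted genes skipped). Pairs named are the 3 highest and 3 lowest r among saline livers. Outside these rules, Arntl with Per3, Usp2 and Noct were picked after their values were seen. Depth was 10801891 to 19909327 reads, so a gene with no read could have had 3, and intervals cover counting error only. Batches of the livers and the hour of collection are not given in the sources used here. The limma p-values set the difference between groups against the spread within groups. A batch or hour that followed the groups would be part of that difference, and was not tested.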

Additional observations from a re-analysis of the deposited data

How the results depend on the processing

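The number of genes past both thresholds was 233 and lay between 189 and 311 under all alternatives but 1, with 1350 when no fold threshold was set, and between 198 and 273 when single livers were left out. Of the other nuclear clock genes and the clock protein modifiers together, 5 passed both thresholds, and 8 without the fold threshold (6 nuclear genes and 2 modifiers). Clock, at -0.99, passed the fold threshold with a pseudocount of 0.1 (-1.02), the median of ratios (-1.01), TMM (-1.01), edgeR (-1.07), DESeq2 (-1.07) and the replicate block (-1.05), and ran from -1.08 to -0.88 over the fits without 1 liver. Cry2 turned sign under the replicate block (-0.025) and ran from -0.025 to 0.13 without 1 liver. Arntl, Npas2, Per1, Per2, Per3 and Cry1 kept their direction and their side of the thresholds under every alternative run for them, with Arntl from -2.49 to -2.18, Per3 from 2.49 to 2.82 and Cry1 from -1.40 to -1.23.

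With the replicate number as a replicate block, 251 genes passed both thresholds, and saline liver 5, whose number no FSH liver shares, then has no weight. With group means subtracted, livers of the same number correlated at 0.07, 0.36, 0.02, 0.14 and -0.07. Only number 2 matched its own number best. There were no known pairs to set these values against, so they cannot decide whether the numbers pair livers.

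Co-variation was called for 0 pairs among saline livers and for 2 with all 11 livers and group means subtracted. The latter count was 1 with the median of ratios and between 1 and 4 without 1 liver, alternatives chosen after seeing the data. Arntl with Per1 went from -0.62 among saline livers to 0.32 over all livers with group means subtracted, and Per1 with Cry1 from -0.32 to 0.40, to 0.029 by Spearman and to between -0.68 and 0.021 without 1 saline liver (0.021 without saline liver 4). The causes were not tested. Npas2 reads in FSH livers are too few for a fold, and Arntl there rests on 29 to 74 reads.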

Other observations

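Saline livers 5 and 6 had the lowest Per1 of their group, at 22.2 and 17.4 CPM against 31.9 to 45.0 CPM in the other 4, and the lowest PER sum, at 5.64 and 5.71 CPM per kb against 9.65 to 11.2. Their Arntl was not set apart in the same way, at 18.6 and 22.8 CPM within a group range of 13.2 to 22.8. Clock genes outside the loop were not all low in these livers, since Nr1d1 stood at 6.76 and 5.16 CPM against 2.16, 2.11 and 4.28 CPM in saline livers 1, 2 and 3, with saline liver 4 the highest of the group, and Tef at 48.0 and 69.6 CPM, the lowest and the highest of its group. The 3 that follow were picked because they were low there. Ciart, which encodes a clock repressor, was at 0.741 and 0.187 CPM there against 1.49 to 5.94 in the other 4 saline livers. Usp2, a deubiquitinase gene, was at 12.3 and 17.3 CPM against 34.1 to 74.5, and Noct, a clock-linked phosphatase gene, was at 14.2 and 13.9 CPM against 30.5 to 55.3. In FSH livers Ciart ran from 2.46 to 4.65 CPM, Usp2 from 42.1 to 60.5 and Noct from 19.6 to 63.8. These livers were picked by their values, so nothing was tested between them and the others.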
